A study of Mus musculus with 18 samples.

Results

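Netrins and their receptors were followed as a set of 10 mouse genes, out of 18193 genes that the array annotation named from probe sets with a single gene symbol. The members were the netrin ligands Ntn1 and Ntn4, the netrin-G genes Ntng1 and Ntng2, the receptors Dcc and Neo1, and the UNC5 receptors Unc5a, Unc5b, Unc5c and Unc5d. They were taken by gene symbol, which gave 24 probe sets, and the probe set with the highest mean over all arrays was the main one for each gene. Probe sets whose mean lay in the lowest 30% (under 5.255 log2 units) were left out as dim, and the main probe set of each of the 10 members lay above that level. Levels are log2 intensities, n is 3 arrays per group, and a difference passed where limma gave an adjusted p under 0.05 over all genes tested.

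The arrays came from sorted cells that the labels call interneurons of the caudal ganglionic eminence (CGE), an embryonic source of inhibitory neurons of the cerebral cortex. Control cells came from GAD65-GFP mice, a reporter line in which GFP is under control of the GAD65 gene for a GABA-synthesising enzyme. Htr3a-KO cells came from mice that carried the same GAD65-GFP reporter and a knockout of Htr3a, a subunit of the ionotropic serotonin receptor, so that control and knockout groups shared the reporter. Ages were E14.5, E18.5 and P2 (E for embryonic and P for postnatal day), which the design text ties to tangential migration, entry into the cortical plate and settling in the cortex. There were 6 groups of 3 arrays, 18 in all, and each array pooled at least 4 brains, with the 3 arrays of a group taken from different litters.

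Netrins are laminin-related guidance proteins that steer growing axons and migrating cells. Netrin-1, encoded by Ntn1, attracts through DCC and its relative neogenin, and repels where UNC5 receptors take part, alone or together with DCC. Netrin-4 is a component of basement membranes, and the netrin-G proteins are tethered to the membrane and organise synapses through their own NGL ligands rather than through DCC or UNC5 receptors. UNC5 receptors also bind the FLRT adhesion proteins, which in turn bind latrophilins, and neogenin also binds repulsive guidance molecules (RGMs).

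Array medians were 6.35 to 6.46 log2 units, and arrays correlated at 0.970 to 0.992 within groups. Htr3a was lower in each knockout array than in each control array of its age. It fell by 3.51 on the log2 scale at E18.5 (limma, adjusted p = 7.66e-06) and by 1.94 at P2 (adjusted p = 0.0109), while at E14.5 the difference of -0.75 did not pass (adjusted p = 0.708). The P2 call was lost when array 3 of the P2 knockouts was left out (adjusted p = 0.121) and when the arrays compared were fitted alone (adjusted p = 0.0542). Where the Htr3a probe set lies against the deleted part is not given in the sources used here.

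The label of the cells was set against marker genes. Gad1, a GABA-synthesising enzyme, measured 10.88 to 12.34 over the 18 arrays. Gad2, the GAD65 gene of the reporter, varied more, from 8.44 to 11.57. Its control means were 10.76 at E14.5, 9.67 at E18.5 and 9.24 at P2. In the E14.5 control arrays Gad2 read 11.57, 11.38 and 9.34, and the GABAergic marker Dlx5 10.08, 9.86 and 8.32. Of 11 CGE interneuron markers only Vip, a peptide of late-maturing interneurons, had a group mean below the filter level, at E14.5. Of 8 markers of interneurons of the medial ganglionic eminence (MGE), only Lhx8 had group means below that level. Lhx6, an MGE marker, measured 7.17 to 10.60 over the 18 arrays, and the CGE marker Prox1 4.74 to 7.42. Passing the filter therefore did not set CGE apart from MGE interneurons. RNA of other cells was also present. Neurod6, which marks excitatory neurons of the cortex, lay between 8.91 and 12.38, above the filter level in each array. Isl1, which marks striatal precursors, read 11.97, 12.25 and 8.95 in the E14.5 control arrays and 6.21, 9.34 and 10.38 in the E14.5 Htr3a-KO arrays, against at most 6.30 at the later ages. In sorted bulk samples, fewer cells of a type and less RNA per cell cannot be told apart.

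The summed level of several marker lists differed between ages, as the plot of summed marker levels shows. Between E14.5 and P2 in controls, where 39.2% of all genes passed in either direction, 8 of 9 tested oligodendrocyte lineage genes, 8 of 9 astrocyte genes, 6 of 10 microglia genes and 5 of 10 endothelial and mural genes rose. In the same span 9 of 10 excitatory neuron genes, 7 of 12 striatal genes and 4 of 7 GABAergic genes fell. The other lists gave 5 higher and 1 lower of 11 CGE interneuron genes, 1 higher and 2 lower of 7 MGE interneuron genes, 2 higher of 6 meningeal genes, 1 lower of 3 erythroid genes and 1 higher of 7 cell cycle and progenitor genes. Mean sums of some lists also differed between genotypes. Those with overlapping arrays are given first. At E14.5 they were 13.62 in controls and 12.41 in Htr3a-KO for the striatal list. For microglia they were 10.14 and 11.93, and for the endothelial and mural list 9.96 and 11.12. At P2 microglia gave 12.35 and 10.72. Other sums did not overlap. At E18.5 the astrocyte list lay at 10.68 to 11.87 in controls and 12.06 to 12.44 in Htr3a-KO. The oligodendrocyte lineage list gave 12.51 to 13.56 and 13.59 to 13.93, and the endothelial and mural list 10.51 to 11.34 and 11.39 to 11.91. At E14.5 the MGE list gave 12.59 to 12.70 and 12.81 to 13.07, and the CGE list 13.81 to 13.87 and 13.88 to 14.14. In each of these comparisons 0 genes of the list passed. In the mean over ages 1 of 10 endothelial and mural genes passed, and Htr3a of the CGE list. The part of these cell types in the age and genotype differences below was not tested.

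**Figure D1:**
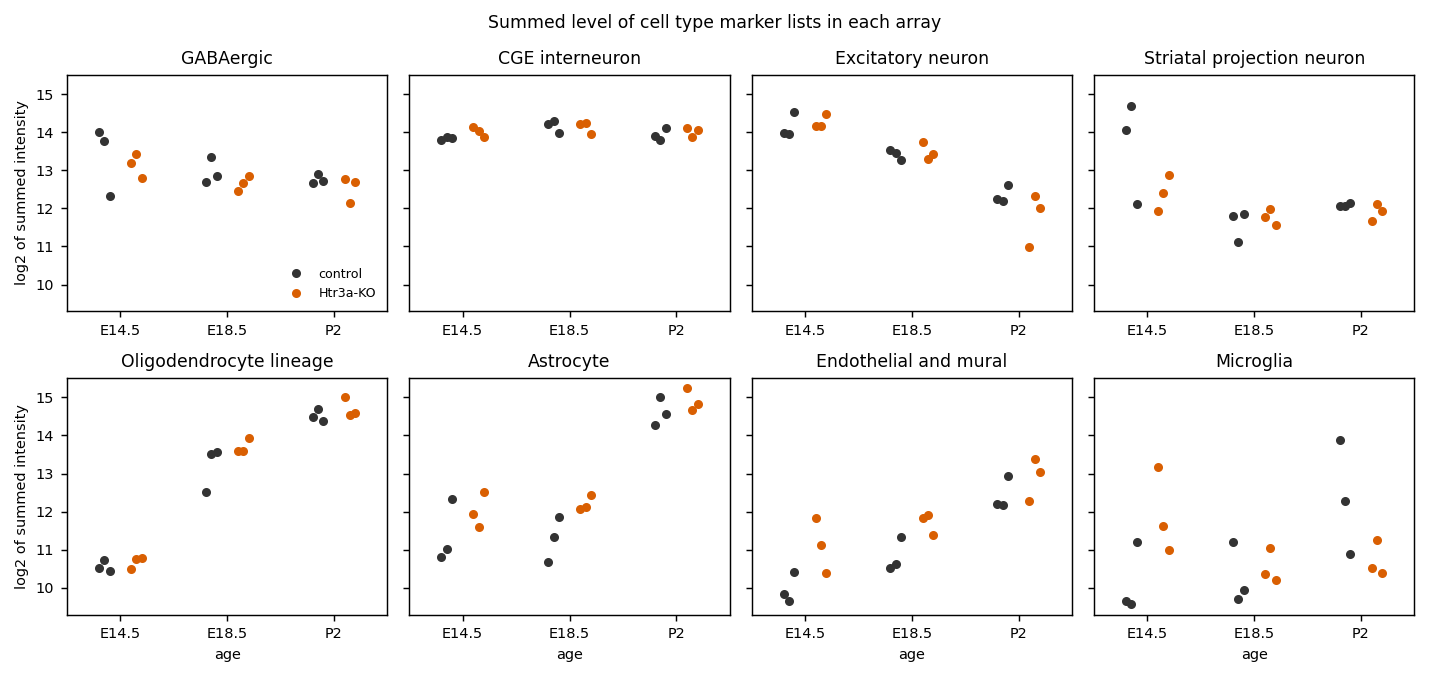
Summed level of 8 cell type marker lists (log2 of the summed linear intensities, vertical axis) by age, 1 point per array, dark for control and orange for Htr3a-KO. The oligodendrocyte lineage list read 10.45 to 10.72 in E14.5 controls and 14.39 to 14.69 in P2 controls, and the excitatory list 13.96 to 14.54 and 12.18 to 12.61.

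Across the 6 groups, Dcc, Unc5d and Unc5c varied most among the members, and Unc5a and Unc5b least. The span between the highest and the lowest group mean was 2.22 for Dcc, 1.72 for Unc5d and 1.48 for Unc5c on the log2 scale, where the median over all genes tested was 0.54. It was 1.02 for Ntn1, 0.94 for Ntn4, 0.79 for Ntng1, 0.65 for Ntng2, 0.45 for Neo1, 0.37 for Unc5a and 0.34 for Unc5b. In each genotype Dcc was highest at E14.5 and lowest at P2, Unc5c was lowest at E14.5, and Unc5d was highest at E18.5.

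**Figure D2:**
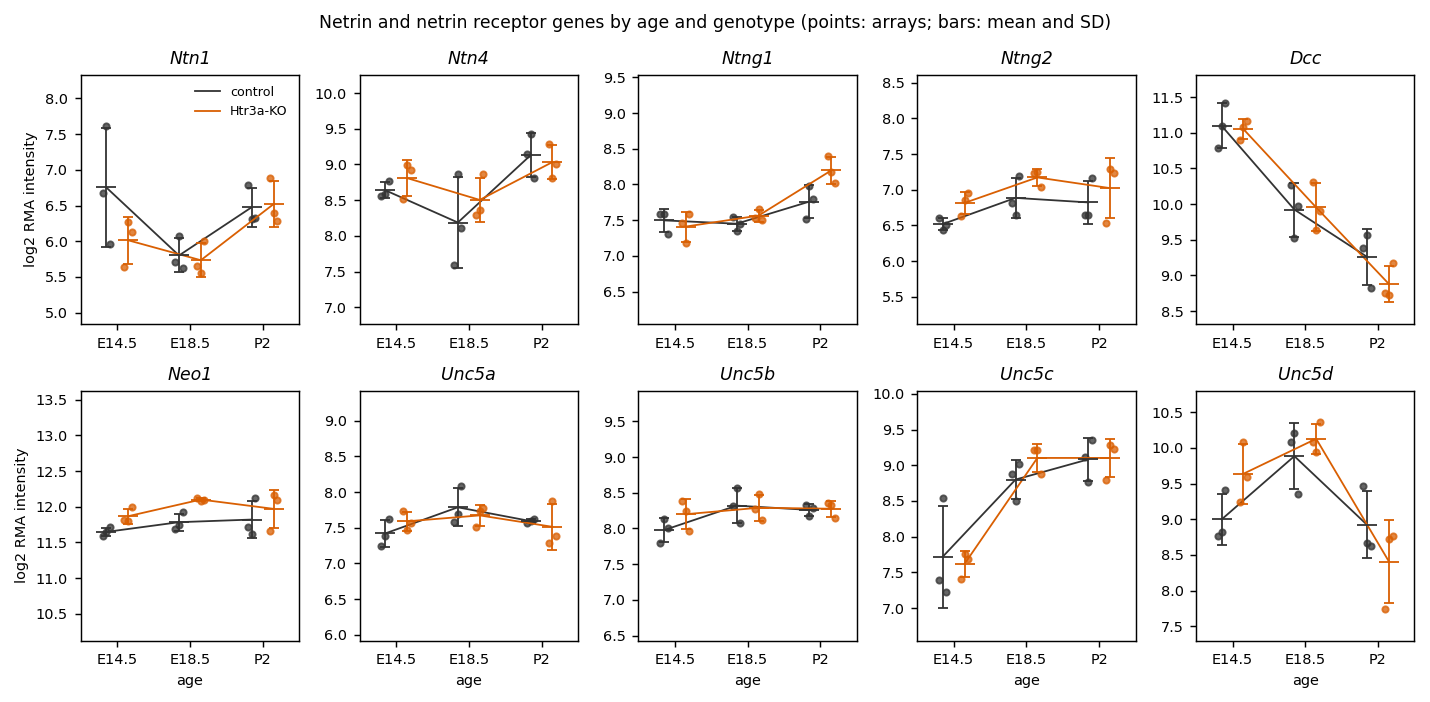
Levels of the 10 members (log2 RMA intensity, vertical axis, each panel spanning the same number of log2 units around its gene's own level) by age, with points for arrays and bars for the mean and SD of 3 arrays, dark for control and orange for Htr3a-KO. Dcc goes from 11.10 to 9.92 to 9.26 in controls, Unc5c from 7.72 to 8.80 to 9.08, and Unc5d from 9.0 to 9.88 to 8.92.

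Among the secreted netrins, Ntn1 passed in no age comparison and Ntn4 changed around birth. Ntn1 (probe set 1454974_at, gene on chromosome 11) read 6.68, 7.62 and 5.96 in E14.5 controls, 5.71, 6.07 and 5.62 in E18.5 controls, and 6.79, 6.31 and 6.33 in P2 controls. In knockouts, in the same order of ages, they were 5.64, 6.27 and 6.13, then 5.65, 5.55 and 6.0, then 6.88, 6.40 and 6.28. The E18.5 mean was the lowest in both genotypes, and the E14.5 control array with 7.62 stood above the other arrays of the gene, while E14.5 and E18.5 controls overlapped.

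No age difference of Ntn1 passed with all arrays. The difference from E14.5 to E18.5 in controls was -0.95 (SE 0.31, limma adjusted p = 0.0631), and from E18.5 to P2 it was 0.68 in controls (adjusted p = 0.145) and 0.79 in Htr3a-KO (SE 0.31, adjusted p = 0.0714). The first of these depended on single arrays: leaving out array 3 of the E14.5 controls gave -1.35, which passed (adjusted p = 0.00680), and leaving out array 2 gave -0.52 (adjusted p = 0.258). The Htr3a-KO difference passed when only the arrays compared were fitted (adjusted p = 0.0218) and when array 2 or 3 of the E14.5 controls was left out (adjusted p up to 0.0286). That same array 2 had the highest summed level of striatal markers in its group, 14.68, against 14.05 and 12.12 in the other E14.5 control arrays. A striatal part in the Ntn1 values was not tested.

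Ntn4 (1439794_at, chromosome 10) read 8.56, 8.59 and 8.77 in E14.5 controls, 7.59, 8.86 and 8.11 in E18.5 controls, and 9.15, 9.43 and 8.81 in P2 controls. Htr3a-KO arrays read 8.52, 8.99 and 8.92, then 8.29, 8.36 and 8.86, then 9.28, 8.81 and 9.01. In both genotypes the E18.5 mean was the lowest and the P2 mean the highest, and the E18.5 control array at 8.86 reached into the P2 range. Ntn4 rose by 0.94 from E18.5 to P2 in controls (SE 0.26, 1.92-fold, limma adjusted p = 0.0184), and the Htr3a-KO difference of 0.53 did not pass (adjusted p = 0.137). This control call did not pass when array 1 of the E18.5 controls was left out (difference 0.65, adjusted p = 0.0985), when array 2 of the P2 controls was left out (adjusted p = 0.0832) and when the 6 arrays compared were fitted alone (adjusted p = 0.0960). Over the same step in controls 19.7% of all genes passed in either direction. The summed endothelial and mural list lay at 10.51 to 11.34 at E18.5 and at 12.18 to 12.94 at P2. Of its genes 3 of 10 were higher, as were 3 of 10 microglia and 8 of 9 oligodendrocyte lineage genes. The astrocyte list lay at 10.68 to 11.87 and at 14.28 to 15.00, with 8 of 9 genes higher, and the part of these cells in the Ntn4 values was not tested.

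Of the netrin-G genes, Ntng1 was higher at P2. Ntng1 (1430779_at, chromosome 3) read 7.59, 7.59 and 7.31 in E14.5 controls, 7.55, 7.35 and 7.45 in E18.5 controls, and 7.51, 7.98 and 7.79 in P2 controls. Htr3a-KO arrays read 7.46, 7.18 and 7.59, then 7.53, 7.66 and 7.50, then 8.40, 8.17 and 8.02. The 3 P2 knockout arrays lay above the other 15 arrays of the gene. Ntng1 rose by 0.63 from E18.5 to P2 in Htr3a-KO (SE 0.14, 1.55-fold, limma adjusted p = 0.00430) and by 0.79 from E14.5 to P2 (adjusted p = 3.96e-04), where controls gave 0.31 (adjusted p = 0.137) and 0.26 (adjusted p = 0.153). The difference between the genotypes in these steps was tested and did not pass, as given below. With the mean of the gene's probe sets past the filter in place of the main one, the E18.5 to P2 difference in Htr3a-KO was 0.21 (adjusted p = 0.313). That mean passed from E14.5 to P2 in controls (0.52, adjusted p = 0.0148) and from E14.5 to E18.5 in Htr3a-KO (0.56, adjusted p = 0.0243). Without array 1 of the P2 controls, the control differences passed too, at 0.43 for E18.5 to P2 (adjusted p = 0.0467) and 0.39 for E14.5 to P2 (adjusted p = 0.0484).

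Ntng2 (1432033_at, chromosome 2) passed in no age comparison. Its lowest group was E14.5 control at 6.52 ± 0.09 (SD, n = 3) and its highest was E18.5 Htr3a-KO at 7.17 ± 0.12, with all 18 arrays between 6.44 and 7.29. The largest difference between ages was 0.37 from E14.5 to E18.5 in controls (SE 0.19, adjusted p = 0.256), and Htr3a-KO gave 0.36 (adjusted p = 0.218).

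Dcc, the receptor for attraction to netrin-1, fell with age in both genotypes. Its main probe set (1441572_at, gene on chromosome 18) read 10.78, 11.10 and 11.41 in E14.5 controls, 10.27, 9.52 and 9.98 in E18.5 controls, and 9.39, 9.57 and 8.82 in P2 controls. Htr3a-KO arrays read 10.90, 11.08 and 11.17, then 10.31, 9.64 and 9.91, then 8.75, 8.72 and 9.17. All E14.5 arrays lay above all E18.5 arrays in both genotypes, and E18.5 and P2 arrays overlapped in controls and not in Htr3a-KO.

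From E14.5 to E18.5 Dcc fell by 1.17 in controls (SE 0.23, 2.26-fold, limma adjusted p = 0.00492) and by 1.10 in Htr3a-KO (2.14-fold, adjusted p = 0.00695). From E18.5 to P2 it fell by 1.07 in Htr3a-KO (2.10-fold, adjusted p = 0.00397), and the control difference of -0.66 did not pass on this probe set (adjusted p = 0.0589). It did pass when array 2 of the E18.5 controls was left out (-0.86, adjusted p = 0.0305), when array 2 of the P2 controls was left out (-0.82, adjusted p = 0.0483) and with median centring (-0.71, adjusted p = 0.0450). Over the whole span it fell 3.57-fold in controls (adjusted p = 2.56e-05) and 4.5-fold in Htr3a-KO (adjusted p = 4.88e-06). These 5 calls held in each of 27 alternatives, which were 9 other ways of processing and the 18 fits with an array left out. The fall ran beside that of the excitatory list. The summed level of that list in controls was 13.96 to 14.54 at E14.5, 13.28 to 13.54 at E18.5 and 12.18 to 12.61 at P2. From E14.5 to E18.5 in controls 8 of 12 striatal, 4 of 10 excitatory and 2 of 7 GABAergic genes were lower, where 11% of all genes passed. From E18.5 to P2 in controls 6 of 10 excitatory genes were lower, with 0 striatal and 0 GABAergic genes, where 19.7% passed. The part of these cells in the Dcc values was not tested.

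Neo1 (1447693_s_at, chromosome 9), the neogenin gene, passed in no age comparison. Its group means ran from 11.65 ± 0.06 in E14.5 controls to 12.10 ± 0.02 in E18.5 Htr3a-KO, and the differences between ages were 0.14 and 0.04 in controls and 0.23 and -0.13 in Htr3a-KO for the first and the second step.

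Among the UNC5 receptors, which turn the netrin-1 response towards repulsion, Unc5c rose before birth, Unc5d was lower after birth than at E18.5, and Unc5a and Unc5b passed in no age comparison. Unc5c (1449522_at, chromosome 3) read 7.39, 8.54 and 7.23 in E14.5 controls, 8.88, 8.50 and 9.02 in E18.5 controls, and 9.12, 8.77 and 9.36 in P2 controls. Htr3a-KO arrays read 7.41, 7.76 and 7.69, then 9.22, 9.21 and 8.88, then 8.80, 9.28 and 9.23. E14.5 was the low age, with no overlap with E18.5 in Htr3a-KO, while in controls the E14.5 array at 8.54 lay above the lowest E18.5 array.

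Unc5c rose by 1.08 from E14.5 to E18.5 in controls (SE 0.27, 2.11-fold, limma adjusted p = 0.0188) and by 1.48 in Htr3a-KO (SE 0.27, 2.80-fold, adjusted p = 0.00269). From E18.5 to P2 the differences were 0.28 in controls (adjusted p = 0.520) and 0.00 in Htr3a-KO (95% interval -0.58 to 0.58). Over the whole span it rose 2.57-fold in controls (adjusted p = 0.00105) and 2.80-fold in Htr3a-KO (adjusted p = 4.94e-04). The control call of the first step was lost when array 1 (adjusted p = 0.0868) or 3 (0.0794) of the E14.5 controls was left out. It was also lost when array 1 (0.0625) or 3 (0.0788) of the E18.5 controls was left out, and when the 6 arrays compared were fitted alone (0.101). The E14.5 control array at 8.54 was again the array with the highest striatal sum, 14.68, and without it the difference was 1.49 (adjusted p = 6.54e-04). Arrays 1 and 3 of that group had striatal sums of 14.05 and 12.12, with Unc5c at 7.39 and 7.23. Striatal genes fell over that step in controls, 8 of 12 tested. Oligodendrocyte lineage genes rose over it, 8 of 9 tested in each genotype. Of all genes 11% passed in that step in controls and 15.1% in Htr3a-KO, in either direction. The part of these cells in the Unc5c values was not tested.

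Unc5d, a receptor of the same family that also binds FLRT proteins, had 1 probe set (1440484_at, chromosome 8). It read 8.76, 8.82 and 9.41 in E14.5 controls, 10.08, 10.21 and 9.36 in E18.5 controls, and 9.46, 8.67 and 8.63 in P2 controls. Htr3a-KO arrays read 9.24, 10.08 and 9.59, then 10.08, 9.94 and 10.36, then 7.74, 8.72 and 8.76. The E18.5 and P2 arrays did not overlap in Htr3a-KO and overlapped in controls, where the lowest E18.5 array lay below the highest P2 array.

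From E18.5 to P2 Unc5d fell by 1.72 in Htr3a-KO (SE 0.32, 3.29-fold, limma adjusted p = 0.00129) and by 0.96 in controls (1.95-fold, adjusted p = 0.0434). The Htr3a-KO call held in each of the 27 alternatives, and the control call was lost in 12 of them, with adjusted p up to 0.155. Among these were leaving out array 1 or 2 of the E14.5 controls, array 1 or 2 of either E18.5 group, and array 2 or 3 of the P2 controls. The preceding step gave 0.89 in controls (adjusted p = 0.0862) and 0.49 in Htr3a-KO (adjusted p = 0.299), neither past the threshold. Between E14.5 and P2 Unc5d fell by 1.23 in Htr3a-KO (adjusted p = 0.00565), and the control difference was -0.08 (adjusted p = 0.873). The excitatory list also fell from E18.5 to P2, with 6 of 10 genes in controls and 7 of 10 in Htr3a-KO. Of all genes 19.7% and 28.5% passed in either direction. The part of excitatory cells in the Unc5d values was not tested.

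Unc5a (1434095_at, chromosome 13) lay between 7.25 and 8.09 in all arrays and Unc5b (1435110_at, chromosome 10) between 7.79 and 8.57. From E14.5 to E18.5 in controls the differences were 0.37 (95% interval 0.03 to 0.71, adjusted p = 0.162) and 0.34 (95% interval 0.04 to 0.65, adjusted p = 0.14). Their other age differences lay between -0.19 and 0.28, and the 95% intervals of all their age differences lay within -0.53 and 0.71.

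The counts put the members beside all genes tested. From E14.5 to E18.5 in controls 1 member rose and 1 fell, where 11% of the 14292 genes passed in either direction, and in Htr3a-KO 1 rose and 1 fell against 15.1%. From E18.5 to P2 in controls 1 rose and 1 fell against 19.7%, and in Htr3a-KO 1 rose and 2 fell against 28.5%. Over the whole span 1 rose and 1 fell in controls against 39.2%, and 2 rose and 2 fell in Htr3a-KO against 41.5%. The share of the 10 members that passed was near the background, apart from the whole span in controls, where it was lower. That gap was not tested. The median absolute difference was 0.41 for the members and 0.18 for all genes in the first control step, and 0.30 and 0.21 in the second, but over the whole control span it was 0.28 for the members and 0.305 for all genes. In Htr3a-KO it was 0.29 and 0.21 in the first step, 0.345 and 0.26 in the second, and 0.365 and 0.32 over the whole span.

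**Figure D3:**
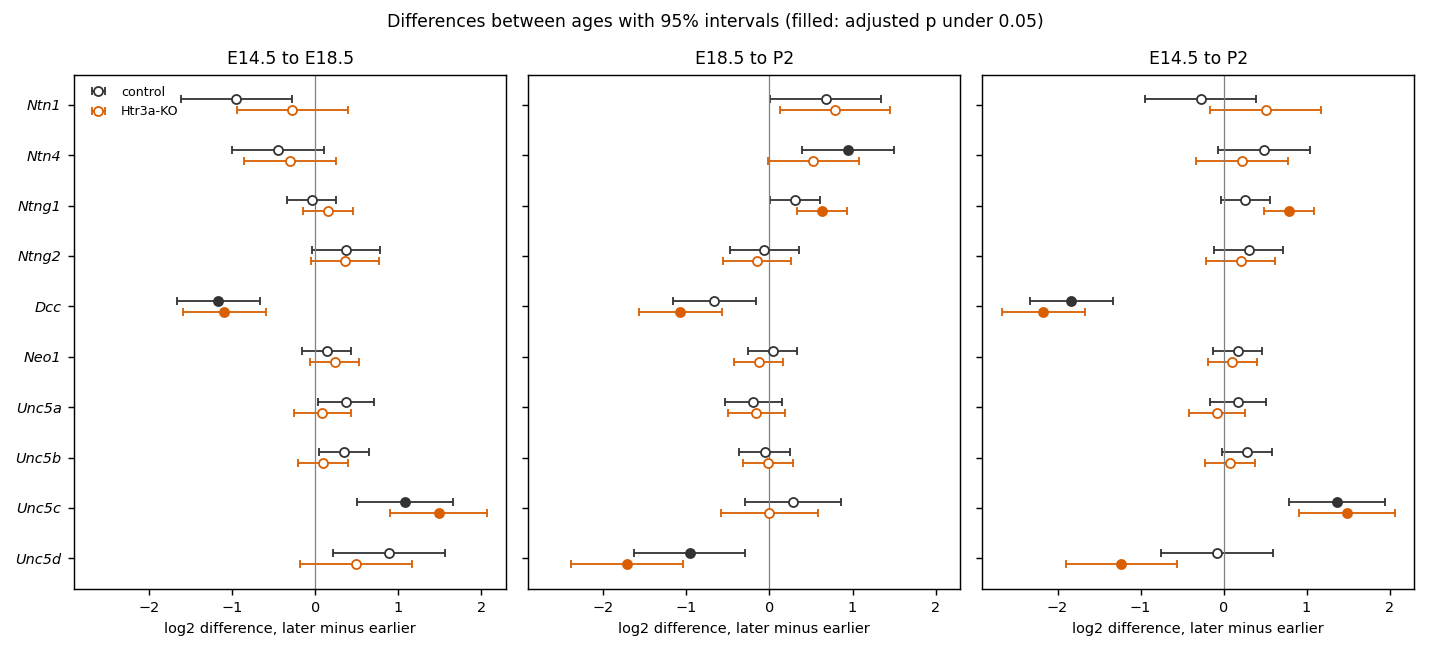
Differences between ages for the 10 members (log2, later minus earlier age, horizontal axis) with 95% intervals from limma, dark for control and orange for Htr3a-KO, filled where the adjusted p was under 0.05. Dcc lies below 0 and Unc5c above 0 in both genotypes from E14.5 to E18.5, at -1.17 and -1.10 and at 1.08 and 1.48.

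Most genes of the set had several probe sets on the array, and these did not always run together. For Dcc the second probe set (1440487_at) fell by 1.17 from E14.5 to E18.5 in controls (adjusted p = 7.73e-04 over all probe sets tested, limma) and by 0.59 from E18.5 to P2 (adjusted p = 0.0279). The third, 1422162_at, was dim, with a mean of 5.62, and rose by 0.41 from E18.5 to P2 in Htr3a-KO (adjusted p = 0.00420), against the direction of the other Dcc probe sets. For Unc5c the second probe set (1419592_at) rose by 0.68 in controls (adjusted p = 0.0346) and by 0.78 in Htr3a-KO (adjusted p = 0.0140) in the first step.

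The Ntng1 probe sets placed its rise at different ages. The second one, 1449286_at, rose by 0.97 from E14.5 to E18.5 in Htr3a-KO (adjusted p = 0.0204) and gave -0.20 from E18.5 to P2, where the main one rose. Over the whole span this second probe set rose by 0.78 in controls (adjusted p = 0.0260) and by 0.77 in Htr3a-KO (adjusted p = 0.0268), and the main one passed only in Htr3a-KO. The other probe sets of Ntn1, Ntn4 and Ntng2 and a further pair for Ntng1 lay below the filter level of 5.255 in their mean, so they were not tested. The further probe sets of Neo1 and Unc5b were bright enough and passed in no age comparison.

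**Figure D4:**
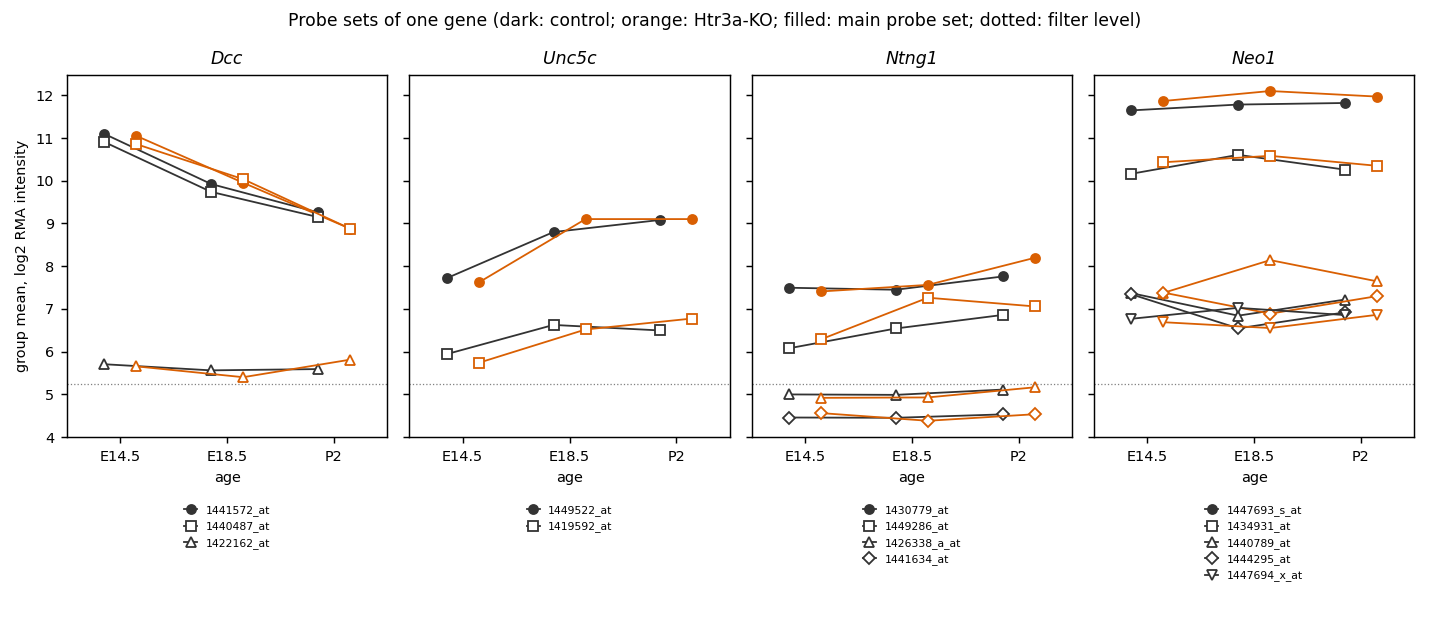
Group means (log2 RMA intensity, vertical axis) by age for each probe set of Dcc, Unc5c, Ntng1 and Neo1, dark for control and orange for Htr3a-KO, with the main probe set filled and the filter level dotted. The brighter pair of Dcc probe sets fall together while the dim one stays between 5.28 and 5.96 over all arrays.

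For 7 members the RefSeq table (GRCm38.p6) held a promoter window, of which the 250 bases before the start position used by that table were read: Ntng2, Ntng1, Unc5c, Neo1, Unc5b, Ntn4 and Unc5a. The windows of Ntng1 and Unc5a lie inside the annotated span of the gene and that of Neo1 overlaps its edge, so these do not precede the outermost start, while the other windows end directly before it. Dcc, Ntn1 and Unc5d were not among them. The windows of the members with a promoter entry that passed a test between ages are shown, in the direction of the gene, with matches to the searched motifs in capitals. Ntng1 lies on the minus strand at chr3:110143473-110143722, Unc5c on the plus strand at chr3:141465314-141465563, and Ntn4 on the plus strand at chr10:93640799-93641048.
Ntng1: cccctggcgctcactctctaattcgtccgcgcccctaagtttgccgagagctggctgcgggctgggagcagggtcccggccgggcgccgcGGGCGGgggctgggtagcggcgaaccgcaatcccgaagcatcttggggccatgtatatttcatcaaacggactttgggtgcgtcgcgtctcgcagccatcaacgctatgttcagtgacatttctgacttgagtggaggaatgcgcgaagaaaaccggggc
Unc5c: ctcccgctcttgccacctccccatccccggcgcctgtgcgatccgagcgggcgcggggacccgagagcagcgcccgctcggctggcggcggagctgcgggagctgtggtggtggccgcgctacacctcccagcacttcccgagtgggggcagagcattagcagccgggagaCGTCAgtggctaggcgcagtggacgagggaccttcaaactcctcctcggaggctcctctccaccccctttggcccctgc
Ntn4: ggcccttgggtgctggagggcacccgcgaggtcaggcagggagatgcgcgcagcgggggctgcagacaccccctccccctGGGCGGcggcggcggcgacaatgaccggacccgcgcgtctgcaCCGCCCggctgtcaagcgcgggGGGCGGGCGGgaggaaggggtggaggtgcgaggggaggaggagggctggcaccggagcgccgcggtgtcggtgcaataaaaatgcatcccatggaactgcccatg
The capitals mark the GC box GGGCGG and the core TGACG of the cAMP response element, each searched on both strands, and CGTCA is TGACG read on the other strand. The Ntn4 window held 4 GC box matches, of which the last pair overlap, Ntng1 held 1 and Unc5c none, and Unc5c held 1 TGACG match. The GC box was in 5 of the 7 member windows and in 32.7% of all 32851 windows of this length, and TGACG in 1 of 7 and in 17.8%. The homeodomain core TAATTA, the E-box CAGCTG and the TATA box TATAAA were in 0 of the 7 windows, and in 4.84%, 13% and 12.4% of all windows. CpG dinucleotides numbered 25 in the Ntng1, 23 in the Unc5c and 26 in the Ntn4 window, where the median of all windows was 6, and Ntng2 was the member with the lowest number, 4.

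The question of the knockout comparison was whether loss of Htr3a goes with other levels of these genes. No member passed at any of the ages or in the mean over ages (limma, adjusted p of at least 0.332). The share of all genes that passed was 0.014% at E14.5, then 0.021% at E18.5, then 0.035% at P2 and 0.294% in the mean over ages. The number for all genes depended on array 3 of the E14.5 controls. Without it 135 genes passed at E14.5, against 2 with all arrays, and 128 against 42 in the mean over ages, still with 0 members. With all arrays and an unadjusted p under 0.05, the members numbered 1, 1, 1 and 2 in these comparisons, where all genes gave 5.86%, 12.9%, 7.58% and 11.2%. For Dcc the difference at E14.5 was -0.05 (95% interval -0.55 to 0.45). It was 0.03 at E18.5 (-0.47 to 0.53) and -0.38 at P2 (-0.88 to 0.12). For Unc5c they were -0.10, 0.30 and 0.02, with intervals reaching from -0.68 to 0.88. From E18.5 to P2 the control differences of these genes were -0.66 for Dcc and 0.28 for Unc5c. The Dcc interval reached beyond that size at P2 only, and not at E14.5 or E18.5. The Unc5c intervals reached beyond it at each age. Genotype differences larger than those steps are thus not excluded for Unc5c, nor for Dcc at P2.

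The largest unadjusted signals were spread over Ntn1, Neo1, Ntng1 and Ntng2. Ntn1 at E14.5 was 6.75 ± 0.83 in controls and 6.01 ± 0.33 in Htr3a-KO, a difference of -0.74 (unadjusted p = 0.0317, adjusted p = 0.808), with overlapping arrays. Ntng1 at P2 was 7.76 ± 0.24 and 8.20 ± 0.19, a difference of 0.44 (95% interval 0.14 to 0.74, unadjusted p = 0.00700, adjusted p = 0.586), with no overlap between the arrays. Its second probe set gave 0.20 at P2 and 0.72 at E18.5 (adjusted p = 0.233). Ntng2 gave 0.30, 0.29 and 0.20 at the 3 ages, with a mean of 0.26 (unadjusted p = 0.0338, adjusted p = 0.410).

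Neo1, which lies 9.96 Mb from Htr3a on chromosome 9, was higher in knockout means by 0.22, 0.32 and 0.15 at the 3 ages, and the mean over ages was 0.23 (SE 0.08, unadjusted p = 0.0116, adjusted p = 0.332). Its arrays read 11.59, 11.64 and 11.71 in E14.5 controls and 11.81, 11.80 and 11.99 in E14.5 Htr3a-KO, without overlap. At E18.5 they read 11.69, 11.74 and 11.92 in controls and 12.12, 12.08 and 12.10 in Htr3a-KO, again without overlap. The 5 Neo1 probe sets gave mean differences of 0.23, 0.11, 0.58, 0.25 and -0.18 over the ages, so 1 of them ran the other way. Members without overlap between genotypes were 2 at E14.5 (Ntng2 and Neo1, against 9.01% of all genes), 1 at E18.5 (Neo1, against 20.7%) and 1 at P2 (Ntng1, against 9.14%).

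**Figure D5:**
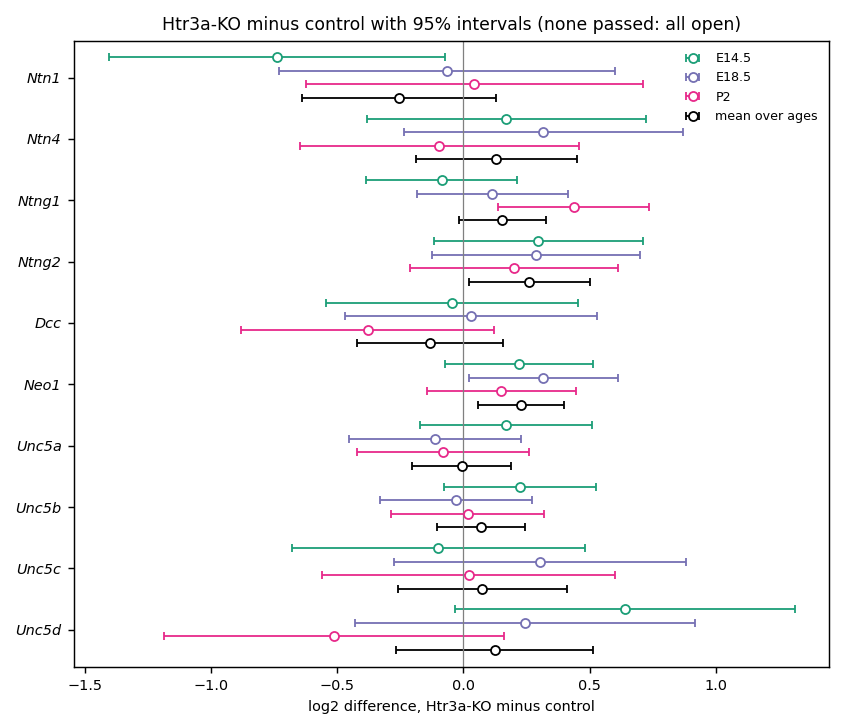
Differences between genotypes for the 10 members (log2, Htr3a-KO minus control, horizontal axis) at E14.5, E18.5 and P2 and in the mean over ages, with 95% intervals from limma, open since none passed. The largest are -0.74 for Ntn1 and 0.64 for Unc5d, both at E14.5.

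Whether age steps differed between the genotypes was tested directly. The difference of the E14.5 to E18.5 step passed for 0 members and 0.007% of genes, and that of the E18.5 to P2 step for 0 members and 0% of genes. The joint F test passed for 0 members and 0% of genes, with 0 members at an unadjusted p under 0.05 in these 3 tests and 7.22%, 7.23% and 7.23% of all genes. The larger age differences of Unc5d and Ntng1 in Htr3a-KO than in controls were therefore not shown to differ between genotypes (limma F test, adjusted p of at least 0.694 for all members).

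Genes around the netrin receptors were read from a list of 52 ligands, binding partners and signalling genes, of which 47 were on the array with a single gene symbol and 45 were tested. In controls 5 rose and 2 fell from E14.5 to E18.5, 4 rose and 4 fell from E18.5 to P2, and 8 rose and 8 fell over the whole span. Called in either direction were thus 7, 8 and 16 of 45, where 11%, 19.7% and 39.2% of all genes passed. In Htr3a-KO the numbers that rose and fell were 3 and 4, 6 and 7, and 8 and 14, where 15.1%, 28.5% and 41.5% of all genes passed in either direction. The difference between the list and all genes was not tested. In the genotype comparisons and the tests of different steps 0 passed.

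In the first control step the smallest p-values belonged to Adgrl3, Ablim1, Pitpna and Trim67. Adgrl3, a latrophilin that binds FLRT proteins and UNC5 receptors, rose by 1.41 (8.15 ± 0.33 to 9.56 ± 0.28, limma adjusted p = 1.81e-04) and by 1.46 in Htr3a-KO (adjusted p = 1.66e-04). Ablim1, an actin-binding protein whose worm relative acts downstream of the netrin receptor, rose by 1.85 (adjusted p = 0.00332). Pitpna, a phosphatidylinositol transfer protein that binds DCC, rose by 0.62 (adjusted p = 0.00426), and Trim67, a brain E3 ubiquitin ligase that interacts with DCC, by 1.21 (adjusted p = 0.00633).

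In the second control step these were Trim9, Siah1a, Flrt3 and Dock1. Trim9, the relative of Trim67 that also binds DCC, rose by 0.91 (adjusted p = 0.00371) in controls and by 0.89 in Htr3a-KO (adjusted p = 0.00315). Siah1a, a ubiquitin ligase known to target DCC for degradation, fell by 0.75 (adjusted p = 0.00448). Dock1, an activator of the GTPase Rac1 downstream of DCC, rose by 1.26 (adjusted p = 0.0117), a call lost when array 1 of the E18.5 controls or array 2 of the P2 controls was left out (adjusted p up to 0.0568). Flrt3, a ligand of UNC5 receptors, fell by 0.89 (adjusted p = 0.0104), a call lost when array 1 of the E18.5 controls was left out (adjusted p = 0.0575).

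Over the whole control span the 4 smallest p-values were those of Adgrl3 (1.45, adjusted p = 1.81e-05), Pitpna (0.90), Flrt3 (-1.32) and Ablim1 (2.09). The other FLRT genes and the RGM genes Rgma and Rgmb were looked at after their values were seen. Flrt1 fell by 0.82 in controls and 1.43 in Htr3a-KO, Flrt2 by 1.62 and 1.67, and Flrt3 by 1.32 and 1.26. These 3 FLRT genes thus fell in both genotypes from E14.5 to P2 (limma adjusted p of at most 0.00596). Over that span 39.2% of all genes passed in controls and 41.5% in Htr3a-KO, in either direction. The Flrt1 call in controls was lost when the arrays compared were fitted alone (adjusted p = 0.0615). Of the RGMs, ligands of neogenin, Rgmb fell by 0.82 in controls (adjusted p = 0.0193) and by 0.73 in Htr3a-KO (adjusted p = 0.0320), both close to the threshold. The control call was lost when array 2 of either age was left out (adjusted p up to 0.103), and the Htr3a-KO call when any E14.5 array or array 1 or 2 at P2 was left out (adjusted p up to 0.132). Rgma rose by 1.24 in Htr3a-KO (adjusted p = 0.00128), and its control difference was 0.59 (adjusted p = 0.0852).

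The genes with the profiles most like those of the members called in a control step were found from the root mean square difference over the 18 arrays, each gene centred on its own mean. For Dcc they were Sorbs2 (0.25 log2 units), Syne2 (0.28) and Tfdp2 (0.31), where the median of all genes was 0.87. For Unc5c they were Myo16 (0.23), Adgrl3 (0.24) and Adgrg2 (0.26), with a median of 0.78. For Ntn4 they were Eci1, Nat8f1 and Hacl1 (0.18 to 0.19, median 0.50), and for Unc5d Foxred2, Tceanc2 and Frmd4b (0.30 to 0.34, median 0.73). Adgrl3 was thus both in the list of netrin-related genes and the second nearest profile to Unc5c.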

How the data were processed

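RNA of 18 sorted cell samples was measured on the Affymetrix Mouse Genome 430 2.0 array. Per the design text, the authors read the signals with Partek Genomic Suite 6.6 and normalised them by robust multi-array averaging (RMA). What they deposited is on the log2 scale with 2 decimals, and no further normalization was applied for the main results. Of 45101 probe sets, 64 were controls, and the array annotation gave a single gene for 34945. The precision is limited by how many arrays there were.

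Probe sets in the lowest 30% of means over the 18 arrays (under 5.255) were left out, and each gene was read from its brightest probe set by mean, for 14292 genes. A limma model (version 3.58.1, under R 4.3.3) with the 6 groups as means had 12 residual degrees of freedom. Contrasts between ages in each genotype, between genotypes at each age and of their interaction gave 13 comparisons. Adjustment was by the Benjamini-Hochberg method across these genes, with a threshold of 0.05. Fits were tested on simulated data. Probe sets were also fitted one by one, over the 26104 past the filter.

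The members, the list of netrin-related genes, the marker lists and the tests were chosen with earlier results of these data known. Named genes were the members, Htr3a, the list genes with up to 4 smallest p-values past the threshold in each control age comparison, and the 3 nearest profiles of each member called there. Replicate numbers did not pair the samples by the labels or by the data. Promoter sequences were taken from RefSeq. The alternatives are given in the closing section.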

Additional observations from a re-analysis of the deposited data

How the results depend on the processing

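Alternatives were no filter, a stricter filter on the lowest 50%, other choices of probe set, quantile normalization, median centring, another variance model, a replicate block, only the arrays compared, and leaving out each array in turn. The count of members past the threshold stayed within 1.5 times its main value in the other comparisons and moved in 2. For E14.5 to E18.5 in controls the 2 members became 1 with only the arrays compared, and 1 to 3 when leaving out an array. For E18.5 to P2 in controls the 2 members became 1 with no filter, 1 with quantile normalization, 1 with the replicate block (numbers as a block) and 0 with only the arrays compared, and 0 to 3 when leaving out an array. In these 2 comparisons calls of Unc5c, Ntn4 and Unc5d were lost and differences of Ntn1, Ntn4, Ntng1, Dcc and Unc5d passed in some alternatives. The cause was not tested. No called difference of a named gene changed sign. Of the uncalled member differences, 98 never passed, and 40 of them had the other sign in some alternative. The numbers of the labels did not pair the samples: residuals of same-numbered arrays correlated at a median of 0.0074 (-0.54 to 0.38), against 0.0204 for different numbers. Only the arrays compared could not be run for the mean over ages and the F test, which use all arrays. Groups of 3 arrays limit what could be detected.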
